A study of Rattus norvegicus with 18 samples.

Results

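The hippocampal formation and the neocortex of the same rats were compared over every sleep condition of a study of paradoxical sleep (rapid eye movement sleep) in rats. All 18 arrays of the series entered the comparison, 9 of each structure. They came from male Sprague Dawley rats weighing 260 to 300 g, 12 per condition. Controls were left in the home cage, a second group was deprived of paradoxical sleep for 78 h, and recovery rats were deprived and then left to recover for 6 h. Their deprivation lasted 72 h by the source labels, but the protocol may also mean 78 h, so its length is not settled. All rats had been implanted with electrodes for recording sleep and were killed at 16 h clock time. Both structures were taken from the right hemisphere, and their RNA was pooled over 6 rats, with 2 sets of rats per condition. Set 1 was hybridised on 2 arrays per structure and condition, whose log2 signals were averaged, and set 2 on 1 array. This gave 6 neocortical and 6 hippocampal pools, and each hippocampal pool was paired with the neocortical pool of the same 6 rats. Every value below is a hippocampal minus neocortical difference within such a pair or a signal from which it was formed. A pool hides the spread between its rats, and whole structures were taken, so the fields of the hippocampus and the layers of the cortex cannot be told apart.

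The hippocampal formation receives its main input from the entorhinal cortex and passes it through the granule cells of the dentate gyrus and the pyramidal cells of the CA fields, and it is known for its role in forming memories. The neocortex is built of layers whose projection neurons send axons to other cortical areas, the striatum, the thalamus and the brainstem. Both hold glutamatergic projection neurons and GABAergic interneurons, but their projection neurons arise from different territories of the embryonic pallium and keep different transcription factors, receptors and channels in the adult. In bulk tissue, fewer cells of a type and less RNA per cell cannot be told apart.

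The pools did not stand equally far apart. The first principal component of the 18625 probe sets tested held 48.3% of the variance. Neocortical pools had positions of -26.3 to -20.7 on it and set 1 hippocampal pools 37.9 to 46.6. Set 2 hippocampal pools were found from 0.30 to 10, nearer to the neocortex than the other hippocampal pools. Set means are therefore given beside some results below, and a result given without them may still differ between the sets. The ratio of the 3' to the 5' probe set of beta-actin, a sign of RNA integrity, was 2.33 to 2.52 in hippocampal and 2.35 to 3.18 in neocortical pools (medians 2.43 and 2.76), and that of GAPDH was 1.09 to 1.17 and 1.05 to 1.17. The part of these ratios in the differences below was not tested.

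Sequences before the start of 3 genes are given first, because these genes stand for the patterns described below: Nts is the largest well-measured difference toward the hippocampal formation, Neurod6 has the largest well-measured difference among basic helix-loop-helix factors, and Scn4b is the largest well-measured difference toward the neocortex. Each is the 250 bases before the annotated start, 5' to 3', from RefSeq on the build GRCr8. Nts is at chr7:39460889-39461138 on the minus strand, Neurod6 at chr4:86180156-86180405 on the minus strand and Scn4b at chr8:54343623-54343872 on the plus strand. Capitals mark matches to 3 motifs searched on both strands, which may overlap each other: CRE (TGACGTCA), AP-1 (TGANTCA) and the E-box CAGATG bound by neuronal basic helix-loop-helix proteins.

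Nts: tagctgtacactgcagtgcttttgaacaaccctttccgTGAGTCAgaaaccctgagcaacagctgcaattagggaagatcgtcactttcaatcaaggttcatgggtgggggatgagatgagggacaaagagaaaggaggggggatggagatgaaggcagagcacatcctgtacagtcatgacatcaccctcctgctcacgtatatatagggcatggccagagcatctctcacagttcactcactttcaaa
Neurod6: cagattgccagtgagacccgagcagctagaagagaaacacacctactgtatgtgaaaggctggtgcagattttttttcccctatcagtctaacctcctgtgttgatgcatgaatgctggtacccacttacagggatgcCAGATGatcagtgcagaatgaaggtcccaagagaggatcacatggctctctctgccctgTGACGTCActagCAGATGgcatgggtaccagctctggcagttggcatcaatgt
Scn4b: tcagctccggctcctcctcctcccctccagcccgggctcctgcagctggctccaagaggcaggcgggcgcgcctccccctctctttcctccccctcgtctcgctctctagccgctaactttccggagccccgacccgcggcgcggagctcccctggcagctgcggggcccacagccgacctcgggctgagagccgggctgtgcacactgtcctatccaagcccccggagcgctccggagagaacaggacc

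Nts held an AP-1 match that starts at -212. Neurod6 held a CRE match at -53 and E-box matches at -112 and -41, and Scn4b held no match. The windows of Wnt4, Lamp5 and Cux2 were also searched and held no match. The AP-1 letters were present in 5.21% of 845 such windows of genes higher in the hippocampal formation, 3.81% of 919 windows of lower genes, 4.06% of the 8627 windows of genes tested and 6.34% of all 33469 windows in the table. For the CRE the shares were 2.37%, 1.96%, 3.07% and 1.59%, and for the E-box 7.81%, 9.36%, 9.04% and 14%, in the same order. A match is a run of letters and not a measured site.

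Of the 18625 probe sets tested, 19.9% differed between the structures at an adjusted p under 0.05 (limma on the 6 paired differences, Benjamini-Hochberg over all probe sets), 9.4% higher and 10.5% lower in the hippocampal formation. A probe set is called below when it passed this test. Each of the 3700 probe sets called had the same direction in both sets of rats, and 3439 had it in all 6 pairs. The spread in this fit is the gap between set 1 and set 2. A probe set with opposite directions in the sets could therefore hardly be called, and their agreement is no separate support. Their median size was 0.54 on the log2 scale in set 1 and 0.39 in set 2, and 2703 of them were larger in set 1. The signals of all 6 hippocampal pools lay outside the range of all 6 neocortical pools for 13.5% of probe sets tested and for 2256 of those called. Most differences were small. Among the 11641 well-measured probe sets, those with a mean log2 signal of at least 6 and both structures above the filter level (a signal of 19.7, under which the dimmest 40% of probe sets were left out), 2709 were called and 108 of these were at least 2-fold higher and 124 at least 2-fold lower. With set 1 alone, 8491 probe sets passed, and with set 2 alone 2741. Fits of 1 set alone leave the gap between sets out of the spread, and set 1 pools average 2 arrays against 1 in set 2. Their counts are therefore not like for like with each other or with the 3700. The pools are paired by rats. With the set of rats as a block on the differences 8006 passed, the 3700 among them.

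**Figure D1:**
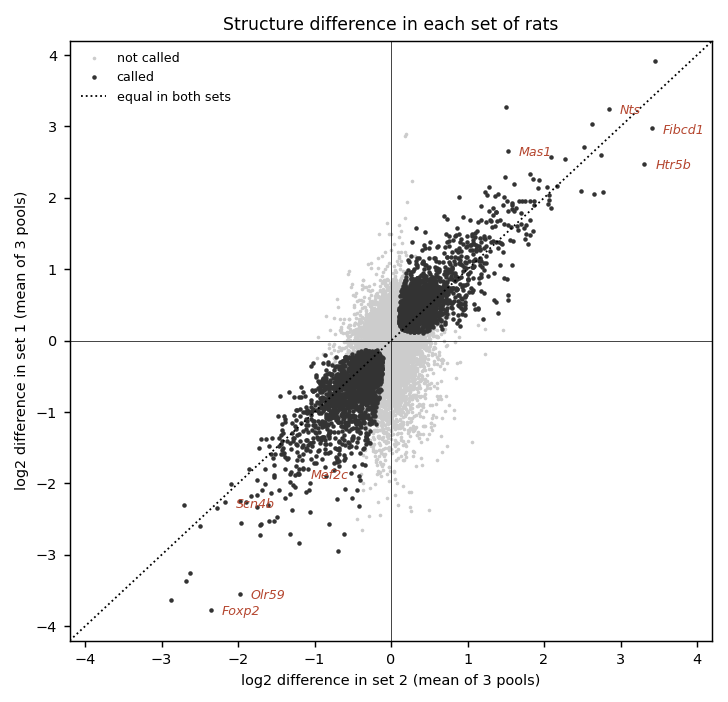
Mean log2 difference (hippocampal formation minus neocortex) of each probe set tested in set 1 (vertical axis, 3 pools) against set 2 (horizontal axis, 3 pools), with probe sets called in black and the others in grey. Called probe sets lie in the quadrants where both sets have 1 sign, which follows largely from the test, whose spread is the gap between sets. Of the 3700, 2703 are farther from 0 in set 1 than in set 2.

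Among well-measured genes, the largest differences toward the hippocampal formation covered a neuropeptide, receptors, a channel subunit and a transcription factor. They also covered calcium-binding proteins, a secreted ligand, a protein of actin regulation and a ubiquitin ligase. Nts encodes the precursor of neurotensin. Its signal was 240.0 to 416 (median 304) in the hippocampal pools and 28.6 to 44.6 (median 39.3) in the neocortical pools, a log2 difference of 3.05 ± 0.10 (SE, 6 pairs; limma, adjusted p = 3.95e-05). Gpr161, an orphan receptor of the primary cilium that restrains hedgehog signalling, had signals of 168 to 243 (median 236) in the hippocampal pools and 32.3 to 52.5 (median 47.2) in the neocortical pools and a difference of 2.29 ± 0.11. Mas1, the receptor for angiotensin-(1-7), had signals of 138 to 241 (median 183) in the hippocampal pools and 25.7 to 68.3 (median 46.7) in the neocortical pools, and its difference of 2.09 ± 0.23 was 2.66 in set 1 and 1.53 in set 2. For each of these genes every hippocampal pool lay above every neocortical pool. Prox1, the homeobox factor that keeps dentate granule cell identity, had signals of 257 to 346 (median 313) in the hippocampal pools and 67 to 82.7 (median 74.1) in the neocortical pools, a difference of 2.03 ± 0.08 (adjusted p = 3.95e-05).

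The copines Cpne4 and Cpne7, which bind membranes in the presence of calcium, differed by 2.09 ± 0.09 and 1.98 ± 0.08, with Cpne4 at 315 to 457 (median 415) in the hippocampal pools and 81.6 to 105 (median 90.9) in the neocortical pools and Cpne7 at 401 to 542 (median 453) in the hippocampal pools and 94.1 to 140.1 (median 117) in the neocortical pools. Kcng2, a modifier subunit of voltage-gated potassium channels, had signals of 105 to 167 (median 142) in the hippocampal pools and 24.2 to 39.7 (median 36.1) in the neocortical pools, a difference of 2.05 ± 0.07. The secreted ligand Wnt4 differed by 1.91 ± 0.07, with signals of 124 to 227 (median 163) in the hippocampal pools and 39 to 56.5 (median 41.7) in the neocortical pools. Wipf3, of the family that binds the actin regulator WASP, had signals of 549 to 921 (median 768) in the hippocampal pools and 175 to 274 (median 195) in the neocortical pools and a difference of 1.85 ± 0.10. Rnf182, a ubiquitin ligase, had signals of 257 to 382 (median 346) in the hippocampal pools and 76.3 to 124 (median 99.6) in the neocortical pools and a difference of 1.75 ± 0.10. The structures did not overlap in any of these genes, and set 1 and set 2 lay close together in several of them: the set means of Wnt4 were 1.95 and 1.87, those of Kcng2 2.04 and 2.06.

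The largest well-measured differences toward the neocortex included genes that are also strongly expressed in the striatum. Scn4b, an auxiliary subunit of voltage-gated sodium channels, had signals of 93.5 to 177 (median 111) in the hippocampal pools and 426 to 612 (median 560.2) in the neocortical pools, a difference of -2.22 ± 0.11 (adjusted p = 5.9e-05). Penk, the precursor of the enkephalins, had signals of 139 to 196 (median 144) in the hippocampal pools and 449 to 628 (median 545) in the neocortical pools and a difference of -1.85 ± 0.11. Drd1, the D1 dopamine receptor, had signals of 38 to 75.2 (median 48.1) in the hippocampal pools and 131 to 192 (median 168) in the neocortical pools and a difference of -1.72 ± 0.12. Every hippocampal pool lay below every neocortical pool in all 3. The other genes of this group were Tmem196, Rprm, Fhod3, Catsperz, Coch, Cbln2 and Plcb4. Rprm, a p53 target that also marks deep cortical layers, had signals of 35.5 to 173 (median 65.4) in the hippocampal pools and 246 to 392 (median 316) in the neocortical pools, and its difference of -2.14 ± 0.18 was -2.57 in set 1 and -1.71 in set 2. Tmem196, a membrane protein, had signals of 44.5 to 157 (median 70.4) in the hippocampal pools and 275 to 415 (median 318) in the neocortical pools and set means of -2.58 and -1.71. In both genes the set 2 hippocampal pools were the highest of the 6, though still below every neocortical pool.

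Cbln2, a secreted organiser of synapses, had signals of 44.8 to 64.7 (median 56.4) in the hippocampal pools and 168 to 192 (median 184) in the neocortical pools, a difference of -1.73 ± 0.07. Plcb4, a phospholipase that follows Gq-coupled receptors, had signals of 79.8 to 109.5 (median 91.9) in the hippocampal pools and 269 to 302 (median 289) in the neocortical pools, a difference of -1.64 ± 0.07. These genes differed by nearly the same amount in both sets, -1.80 and -1.65 for Cbln2 and -1.74 and -1.53 for Plcb4. Fhod3, a formin that assembles actin, had signals of 42.8 to 86.2 (median 55.1) in the hippocampal pools and 196 to 249 (median 225) in the neocortical pools and a difference of -1.96 ± 0.15. Coch, a secreted matrix protein first known from the inner ear, had signals of 48 to 184 (median 103) in the hippocampal pools and 257 to 405 (median 317) in the neocortical pools and a difference of -1.78 ± 0.17. Catsperz, known as a subunit of a sperm calcium channel, had signals of 24.1 to 82.3 (median 36.9) in the hippocampal pools and 131 to 181 (median 139) in the neocortical pools and a difference of -1.80 ± 0.17. Its set means were -2.21 and -1.39, and those of Fhod3 were -2.30 and -1.61.

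**Figure D2:**
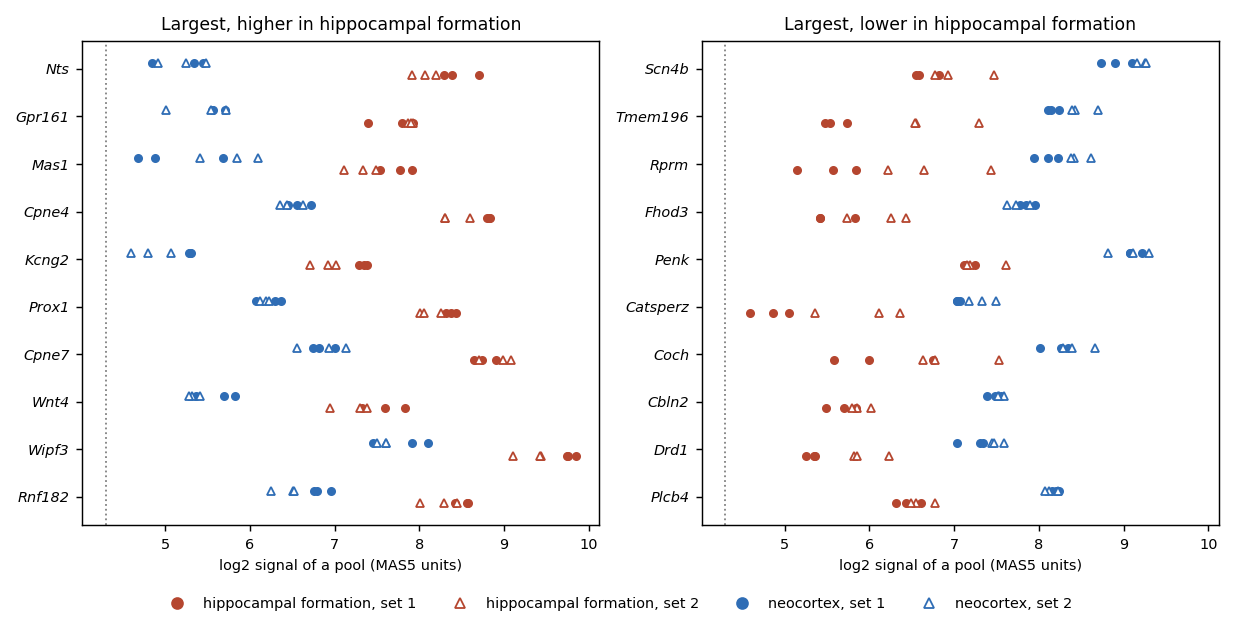
Log2 signal of each pool for the 10 well-measured genes with the largest difference in each direction, red for hippocampal and blue for neocortical pools, filled circles for set 1 and open triangles for set 2. The dotted line is the filter level (log2 4.3), and in all 20 genes the 2 structures do not overlap.

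In 10 further genes the lower structure was below the filter level, so that only the direction and the level in the higher structure are measured. Toward the hippocampal formation these were Fibcd1, Htr5b, Ntf3, Lhx9 and Calml4. Ntf3, the growth factor neurotrophin-3, had signals of 97.7 to 151 (median 129) in the hippocampal pools, and neocortical signals had a median of 18.9. Lhx9, a LIM homeobox factor, had signals of 33.5 to 59.7 (median 53.3) in the hippocampal pools, and Calml4, a calmodulin-like protein, 38 to 88.5 (median 52.2). Toward the neocortex they were Foxp2, Adora2a, Cox6a2, Olr59 and Trim54. Foxp2, a forkhead factor of layer 6 and of striatal neurons, had neocortical signals of 113 to 139 (median 116). Adora2a, the adenosine receptor typical of striatal neurons of the indirect pathway, had neocortical signals of 60.6 to 107 (median 81.5). These 10 genes were picked by size among called genes, so their calls follow from the choice. The structures did not overlap in any of them.

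Lists of marker genes were described by the number of members called and by their median, to be read against all 10294 genes with a probe set tested, of which 20.8% were called, 10.1% higher and 10.7% lower, with a median difference of -0.01. Of 19 hippocampal neuron markers measured, 15 were higher and 2 lower, with a median of 0.80 (0.78 in set 1 and 1.06 in set 2). The label of the hippocampal samples fits most of the markers of its tissue in both sets: the median over the list was 0.93 to 1.14 in each of the 6 pairs, and the gene in the middle of the list is not the same in every pair. Pkp2, a plakophilin of cell junctions, had signals of 109 to 117 (median 112) in the hippocampal pools and 13.7 to 30.6 (median 21.7) in the neocortical pools. Grik4, the kainate receptor subunit typical of CA3, had signals of 85.6 to 121 (median 105) in the hippocampal pools and 40.8 to 51.1 (median 47.5) in the neocortical pools. The lower members were Kcnj4, an inward rectifier potassium channel, at -0.51 ± 0.08, and Ociad2 at -0.21 ± 0.05. The structures overlapped in Ociad2, and its call held in 9 of 19 alternative analyses. The summed signal of the 19 markers was 6221 to 7294 in hippocampal and 3771 to 3922 in neocortical pools.

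Of 20 neocortical markers measured, 9 were lower and 3 higher in the hippocampal formation (median -0.23, -0.38 in set 1 and -0.15 in set 2). The lower ones included Lamp5, a membrane protein of upper-layer and neurogliaform cells, with signals of 255 to 331 (median 302) in the hippocampal pools and 814 to 1025 (median 905) in the neocortical pools. Cux2, the homeobox factor of the upper layers, had signals of 32.3 to 60.7 (median 43.4) in the hippocampal pools and 117 to 151 (median 131) in the neocortical pools, a difference of -1.59 ± 0.11. Tbr1, a T-box factor of deep layers, had a difference of -1.03 ± 0.13. The structures did not overlap in these genes. The 3 higher ones were factors or enzymes that hippocampal pyramidal cells also express: Bhlhe22 at 1.22 ± 0.06, the thyroid hormone-binding crystallin Crym at 0.87 ± 0.04, and Bcl11b (also known as Ctip2) at 0.62 ± 0.07. Crym had signals of 1262 to 1408 (median 1348) in the hippocampal pools and 694 to 792 (median 726) in the neocortical pools. The summed signal of the list was 9072 to 10134 in hippocampal and 10762 to 11126 in neocortical pools.

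Of 13 striatal markers, 12 were lower in the hippocampal formation and none was higher, with a median of -1.42 (-1.37 in set 1 and -1.43 in set 2). Tac1, the precursor of substance P, had signals of 32.5 to 41.3 (median 35.5) in the hippocampal pools and 82.9 to 133 (median 104) in the neocortical pools. Drd2, the D2 dopamine receptor, had neocortical signals of 62.9 to 85.9 (median 71.2) and was below the filter level in the hippocampal pools. The summed signal of the list was 3344 to 4024 in neocortical and 1480 to 1799 in hippocampal pools. Meninges and fibroblasts were followed by 19 markers, of which 16 were lower and 2 higher, with a median of -0.85. Col3a1 and Col1a2, fibrillar collagens, differed by -1.60 ± 0.13 and -1.42 ± 0.09, and Col3a1 had signals of 28.6 to 41.6 (median 40) in the hippocampal pools and 66.5 to 174 (median 123) in the neocortical pools. Ogn, a small proteoglycan, differed by -1.34 ± 0.12. The small proteoglycans Dcn and Lum went the other way, at 0.75 ± 0.18 and 0.38 ± 0.08. The set means of Dcn were 0.30 in set 1 and 1.21 in set 2, and its pools overlapped. The summed signal was 2158 to 2759 in neocortical and 1231 to 1973 in hippocampal pools. These markers move with the structure, and the part of adjoining striatum or meninges in the differences of other genes was not tested.

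The glial lists had 10% to 22.2% of their members called, near or below the share of 20.8% over all genes. Their counts therefore do not set them apart from the genes tested. Of 18 astrocyte markers, 4 were higher and none lower, with a median of 0.13. Agt, the precursor of angiotensin, had signals of 265 to 374 (median 302) in the hippocampal pools and 158 to 223 (median 194) in the neocortical pools, a difference of 0.71 ± 0.06. Gfap, the astrocyte intermediate filament, had signals of 1808 to 2237 (median 1872) in the hippocampal pools and 1239 to 1664 (median 1376) in the neocortical pools and a difference of 0.48 ± 0.05. In these genes every hippocampal pool lay above every neocortical pool. Of 20 oligodendrocyte and myelin markers 2 were higher (Mobp at 0.24 ± 0.06 and Cnp at 0.19 ± 0.05) and none lower, with a median of 0.19 in set 1 and 0.04 in set 2. Of 14 microglial markers 1 was higher, Ctss at 0.22 ± 0.06, and 1 lower, Cd74 at -0.74 ± 0.10. The calls of Mobp, Cnp and Ctss held in 10, 7 and 7 of 19 alternative analyses, and the pools of the structures overlapped in each. Of 17 endothelial and mural markers 5 were lower and none higher, led by von Willebrand factor, Vwf, at -0.73 ± 0.09. Of 12 choroid plexus and ependymal markers on the array 6 passed the filter, and Tmem212, an ependymal gene, was higher at 0.72 ± 0.16. The choroid sum ran from 818 to 6134 in hippocampal and from 639 to 2997 in neocortical pools, and these ranges overlapped. Of 7 thalamic markers 3 were lower and 1 higher, and of 3 red blood cell markers none was called (smallest p for Alas2, -0.15 ± 0.12, adjusted p = 0.377).

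**Figure D3:**
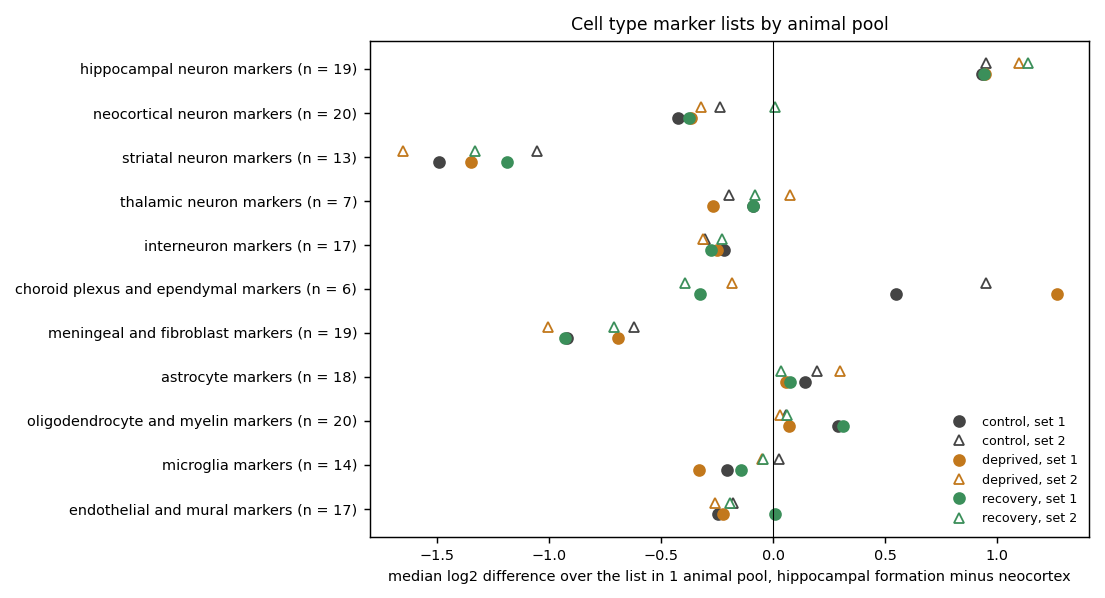
Median log2 difference (hippocampal formation minus neocortex) over the measured members of 11 cell type marker lists in each pair of pools, coloured by condition, with filled circles for set 1 and open triangles for set 2. Hippocampal markers lie between 0.93 and 1.14 in all 6 pairs, striatal and meningeal markers below 0 in all 6, and choroid plexus markers on both sides of 0.

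GABA-A receptors are chloride channels built of several subunits, and their make-up sets where the receptor sits and how it opens. Of 8 subunits measured 4 were higher and 3 lower in the hippocampal formation. Gabra5, the subunit of extrasynaptic receptors abundant on CA1 pyramidal cells, had signals of 659 to 806 (median 736) in the hippocampal pools and 272 to 324 (median 288) in the neocortical pools, a difference of 1.33 ± 0.06 (adjusted p = 5.84e-05). Gabra2, typical of the axon initial segment, had signals of 243 to 379 (median 286) in the hippocampal pools and 124 to 179 (median 159) in the neocortical pools and differed by 0.96 ± 0.16, 1.32 in set 1 and 0.60 in set 2. Gabrd, the delta subunit of tonic inhibition, had signals of 99.3 to 135 (median 116) in the hippocampal pools and 217 to 272 (median 245) in the neocortical pools, a difference of -1.07 ± 0.09. The structures did not overlap in these genes. Gabrb2, a subunit of most synaptic receptors, was lower with a difference of -0.53, Gabra3 differed by -0.80 ± 0.17 with overlapping pools, and Gabrg1 and Gabrb1 were higher by 0.47 and 0.37. Gabra4 was not called, at 0.05.

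Glutamate receptor subunits were also called on both sides, with 4 of 11 ionotropic subunits higher and 2 lower. Grik4, given above, differed by 1.16 ± 0.11. Gria1, the AMPA receptor subunit that is inserted during potentiation, had signals of 177 to 319 (median 239) in the hippocampal pools and 90.2 to 138 (median 109) in the neocortical pools, a difference of 1.11 ± 0.16, 1.49 in set 1 and 0.72 in set 2. Grin2a, an NMDA receptor subunit of mature synapses, had signals of 201 to 393 (median 301) in the hippocampal pools and 126 to 258 (median 201) in the neocortical pools. Its pools overlapped between structures while each pair differed in 1 direction, with a mean of 0.63 ± 0.09. Gria3 and Gria4, the other AMPA subunits named, were lower at -0.59 ± 0.11 and -0.53 ± 0.08, with Gria3 at 684 to 1021 (median 879) in the hippocampal pools and 1086 to 1405 (median 1312) in the neocortical pools. The set means of Gria3 were -0.83 in set 1 and -0.35 in set 2. Gria2, the subunit that blocks calcium entry, was higher by 0.17. Of 6 metabotropic receptors, Grm4 was called, lower at -0.61 ± 0.11. Of 4 glycine and nicotinic subunits, Chrna4 and Glrb were lower at -0.89 ± 0.11 and -0.33 ± 0.05, and none of 3 muscarinic receptors was called (smallest p for Chrm4, -0.20 ± 0.15, limma adjusted p = 0.366).

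Serotonin receptors split by subtype: of 8 measured 4 were higher and 1 lower, with a median of 0.66. Htr1a, the inhibitory receptor of pyramidal and granule cells, had signals of 52.6 to 101 (median 88.7) in the hippocampal pools and 24.8 to 29.8 (median 27.5) in the neocortical pools, a difference of 1.59 ± 0.12. Htr4, which raises cyclic AMP, had signals of 38.5 to 73 (median 60.4) in the hippocampal pools and 20.3 to 33.8 (median 30) in the neocortical pools, and its difference of 1.05 ± 0.21 was larger in set 2 (1.53) than in set 1 (0.57). Htr2a, the excitatory receptor of deep-layer cortical neurons, had signals of 21.9 to 33.9 (median 28.1) in the hippocampal pools and 65.8 to 75.9 (median 72.5) in the neocortical pools, a difference of -1.37 ± 0.12. No pool of 1 structure reached the range of the other in these genes. Htr5b was at 68.1 to 104 (median 93.7) in the hippocampal pools and below the filter level in the neocortex, and Htr2c was higher by 0.72. Among 7 adrenergic and dopamine receptors, Adra1d was higher at 0.57 ± 0.13 and Adra1b lower at -1.14 ± 0.11, beside Drd1 and Drd2.

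**Figure D4:**
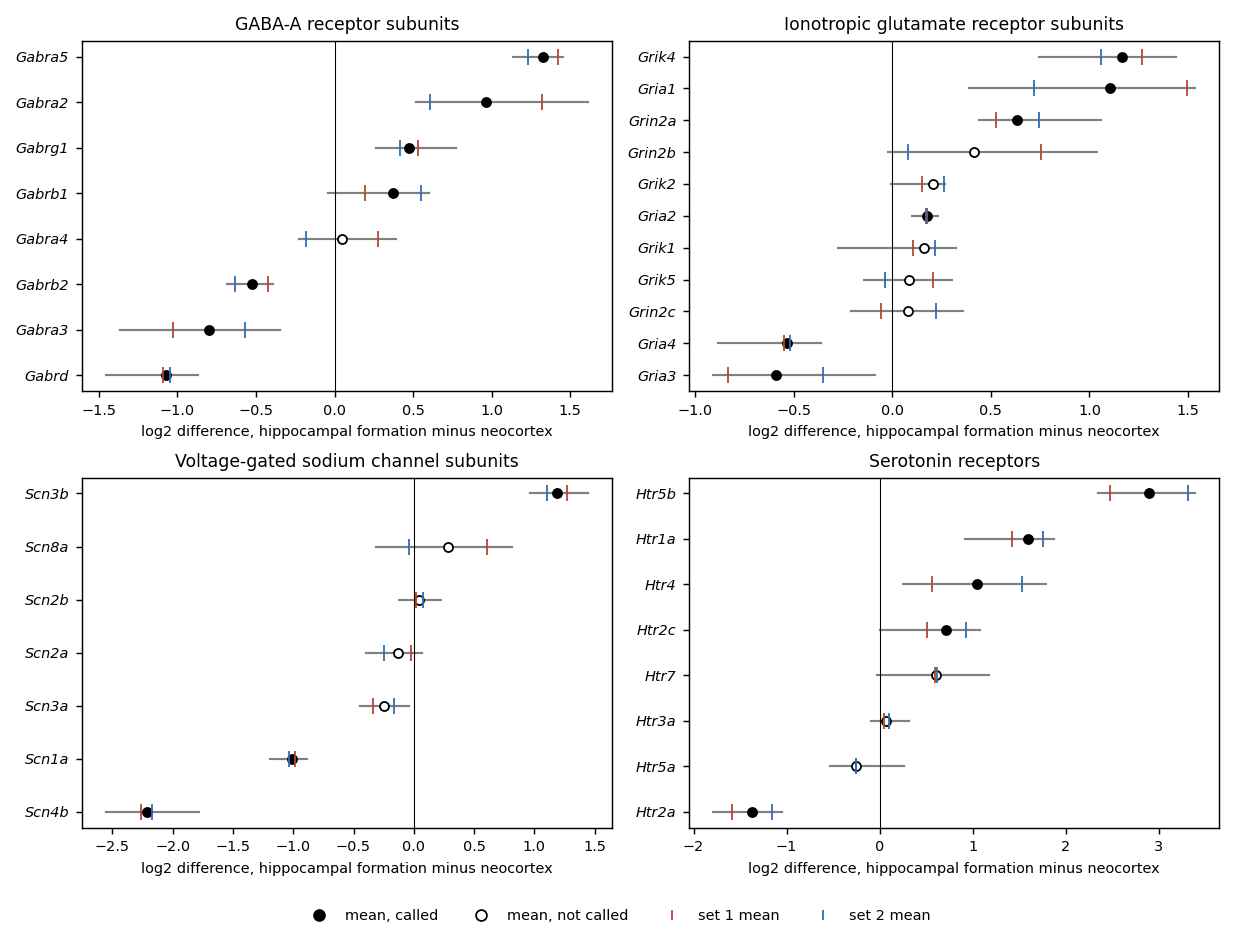
Log2 difference (hippocampal formation minus neocortex) of every measured member of 4 gene families: circles give the mean of 6 pairs (filled where called), grey bars the lowest to the highest pair, red and blue ticks the means of set 1 and set 2. Each family holds called members on both sides of 0.

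Potassium channels set the resting potential and the shape and rate of firing. Of 46 potassium channel subunits measured 18 were lower and 8 higher, with a median of -0.18. Kcnk2, the leak channel TREK-1, had signals of 68.4 to 96.9 (median 85.2) in the hippocampal pools and 197 to 262 (median 235) in the neocortical pools, a difference of -1.47 ± 0.08. Kcnt1, a sodium-activated potassium channel, had signals of 27 to 93.2 (median 43.3) in the hippocampal pools and 81.8 to 110.1 (median 99.5) in the neocortical pools, and its difference of -1.05 ± 0.22 was -1.58 in set 1 and -0.53 in set 2. Kcns1, a silent modifier subunit, was lower at -1.0 ± 0.13. The pools of the structures overlapped in Kcnt1 but not in Kcnk2 or Kcns1. The 18 also held channels of fast-spiking interneurons and axons, Kcnc1 at -0.59, Kcnc2 at -0.35 and Kcna2 at -0.52. On the hippocampal side, beside Kcng2, Kcnj6 (the G protein-gated channel GIRK2) had signals of 353 to 463 (median 402) in the hippocampal pools and 219 to 277 (median 249) in the neocortical pools, and the A-type channel Kcnd2 and its partner Kcnip2 differed by 0.51 and 0.50.

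Of 7 sodium channel subunits 1 was higher and 2 lower. Scn3b, an auxiliary subunit, had signals of 1358 to 2002 (median 1648) in the hippocampal pools and 696 to 742 (median 719) in the neocortical pools, a difference of 1.19 ± 0.06. Scn1a, the pore subunit typical of parvalbumin interneurons, had signals of 205 to 297 (median 255) in the hippocampal pools and 459 to 602 (median 485) in the neocortical pools, a difference of -1.01 ± 0.06. The auxiliary subunits Scn3b and Scn4b lay on opposite sides, each without overlap. Of 15 calcium channel subunits 4 were higher and 5 lower. Cacng8, an auxiliary protein of AMPA receptors that is abundant in the hippocampus, had signals of 99 to 226 (median 149.6) in the hippocampal pools and 38.3 to 51 (median 45.4) in the neocortical pools, and its difference of 1.71 ± 0.19 was 2.15 in set 1 and 1.27 in set 2. Cacng3, of the same family, was lower at -0.65 ± 0.05. Cacna1h, a T-type channel, was higher at 0.93 ± 0.09. The measured HCN channels, which carry the current activated by hyperpolarisation, were Hcn2, lower at -0.33 ± 0.09, and Hcn3. Hcn3 had neocortical signals of 24 to 30.4 (median 25.8) and was below the filter level in the hippocampal formation, and its call as lower held in 5 of 18 alternatives. The call of Hcn2 held in 8 of 19.

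Neuropeptide precursors went both ways, with 6 of 26 measured higher and 8 lower. Nmb, neuromedin B, had signals of 48.3 to 95.5 (median 70.9) in the hippocampal pools and 19.2 to 28.9 (median 25.5) in the neocortical pools, a difference of 1.58 ± 0.09. Scg2, a granin of dense-core vesicles, had signals of 1096 to 1485 (median 1259) in the hippocampal pools and 538 to 783 (median 601) in the neocortical pools, a difference of 1.01 ± 0.06. Vip, the peptide of a class of interneurons, had signals of 145 to 196 (median 173) in the hippocampal pools and 347 to 419 (median 394) in the neocortical pools, a difference of -1.19 ± 0.08, and Crh, corticotropin-releasing hormone, had signals of 12.7 to 34.7 (median 21.5) in the hippocampal pools and 41.7 to 80.5 (median 61.6) in the neocortical pools, a difference of -1.51 ± 0.12. No pool of 1 structure reached into the other in these 4 genes. Among 17 interneuron markers 8 were lower and 1 higher, with a median of -0.21. The lower ones included Npy at -0.64, the calcium buffer Pvalb at -0.62 and the vesicular GABA transporter Slc32a1 at -0.42. The GABA-synthesising enzymes Gad1 and Gad2 were not called, at -0.08 and 0.12, and Calb2 was the higher member, at 0.52 ± 0.11. Some of these genes stand on 2 lists, among them Penk and Tac1.

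Of 35 receptors for peptides, purines and other ligands 10 were higher and 7 lower. Trhr, the thyrotropin-releasing hormone receptor, had signals of 64.2 to 74.4 (median 66.3) in the hippocampal pools and 33.4 to 48.5 (median 38.4) in the neocortical pools, a difference of 0.76 ± 0.09. Cnr1, the cannabinoid receptor of axon terminals, was higher by 0.57. Cckbr, the cholecystokinin receptor of cortex, had signals of 27.6 to 52.1 (median 44.3) in the hippocampal pools and 66.1 to 87.9 (median 75.9) in the neocortical pools, and its difference of -0.92 ± 0.15 was -1.19 in set 1 and -0.64 in set 2. Sstr1 was lower at -0.62 ± 0.12 (-0.91 in set 1 and -0.33 in set 2) while Sstr4, another somatostatin receptor, was higher by 0.66. The somatostatin receptors called were on both sides.

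The proteins that carry the signal of such receptors were also called. Of 15 regulators of G protein signalling, which speed the return of G proteins to rest, 8 were lower and 2 higher, with a median of -0.26. Rgs4 had signals of 377 to 757 (median 470.2) in the hippocampal pools and 1287 to 1453 (median 1353) in the neocortical pools, a difference of -1.44 ± 0.15. Its set means were -1.80 in set 1 and -1.08 in set 2. Rgs9, known from striatal neurons, had signals of 34.6 to 55.7 (median 45.9) in the hippocampal pools and 90.8 to 136 (median 119.8) in the neocortical pools, and Rgs14, known from CA2, went the other way at 209 to 224 (median 215) in the hippocampal pools and 129.9 to 150.4 (median 143) in the neocortical pools. There was no overlap between structures in these 3. Of 19 adenylyl cyclases and phosphodiesterases, which make and break down cyclic nucleotides, 7 were lower and none higher, with a median of -0.24 (-0.38 in set 1 and -0.10 in set 2). They were led by Pde8b at -1.20 ± 0.22, and Adcy5 and Pde10a, both striatal in their highest expression, were lower at -0.91 ± 0.09 and -0.72 ± 0.08. Of 25 G protein subunits 3 were higher and 4 lower, and Gna14, of the Gq class, had signals of 72.1 to 105 (median 95.3) in the hippocampal pools and 15.8 to 32 (median 24) in the neocortical pools, a difference of 1.97 ± 0.10.

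Of 33 members of the protein kinase C, protein kinase A and calmodulin-dependent kinase families 12 were lower and 5 higher. The calmodulin kinase II subunits went apart. Camk2b, which binds actin, had signals of 1446 to 2169 (median 1748) in the hippocampal pools and 1151 to 1286 (median 1221) in the neocortical pools, a difference of 0.53 ± 0.09, while Camk2d had signals of 345 to 581 (median 458) in the hippocampal pools and 709.9 to 868 (median 826) in the neocortical pools, a difference of -0.80 ± 0.10. Camk2a, the most abundant subunit of forebrain, was not called, at 0.20. Camk2n1, an inhibitor of the kinase, had signals of 157 to 267 (median 237) in the hippocampal pools and 363 to 715 (median 533) in the neocortical pools, a difference of -1.26 ± 0.07. None of these 3 called genes overlapped between structures. Prkca was higher at 0.78 ± 0.08, and Prkar2b, a regulatory subunit of protein kinase A, was lower at -0.84 ± 0.06.

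Of 40 calcium-binding and calcium sensor proteins 11 were higher and 12 lower. Hpca, hippocalcin, a sensor named for its level in the hippocampus, had signals of 1534 to 2419 (median 1946) in the hippocampal pools and 765 to 884 (median 788) in the neocortical pools, a difference of 1.28 ± 0.09. Its set means were 1.49 in set 1 and 1.06 in set 2. Rcan2, a regulator of calcineurin, had signals of 449 to 584 (median 491) in the hippocampal pools and 969 to 1075 (median 995) in the neocortical pools, a difference of -1.01 ± 0.07, and Cabp1, which tunes calcium channels, was lower at -0.97 ± 0.07. All 3 were without overlap. Ryr3, an intracellular calcium release channel, was higher at 0.67 ± 0.07. Of 17 dual-specificity phosphatases, which switch off MAP kinases, 3 were higher and 2 lower, with Dusp1 at -0.78 ± 0.07 and Dusp26 at -0.61 ± 0.08 on the neocortical side.

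Basic helix-loop-helix genes, which include the factors that drive neuronal differentiation, had called members mainly on the hippocampal side: of 36 measured 10 were higher and 2 lower, with a median of 0.10. Neurod6, kept on in adult pyramidal cells, had signals of 926 to 1419.8 (median 1113) in the hippocampal pools and 286 to 391 (median 344) in the neocortical pools, a difference of 1.75 ± 0.08 (adjusted p = 5.34e-05). Bhlhe22 had signals of 1178 to 1579 (median 1336) in the hippocampal pools and 535 to 623 (median 581) in the neocortical pools. Neurod2 and Neurod1 were higher by 1.05 and 0.79, and Nhlh1, below the filter level in neocortex, had hippocampal signals of 35.5 to 58.9 (median 42.1). The structures did not overlap in Neurod6, Bhlhe22 or Nhlh1. The 2 lower members, Npas2 at -0.94 ± 0.17 and Bmal1 at -0.43 ± 0.09, are clock factors. Npas2 had signals of 132 to 272 (median 164) in the hippocampal pools and 315 to 367 (median 334) in the neocortical pools and set means of -1.36 and -0.52.

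Circadian clock genes as a list had 7 of 20 lower and none higher, with a median of -0.17 and set medians of -0.15 and -0.18. Beside Npas2 and Bmal1 these were Rora at -0.65, Hlf at -0.62, Csnk1e at -0.48, Nr1d2 at -0.45 and Dbp at -0.42. Hlf, an output factor of the clock, had signals of 260.0 to 344 (median 320.2) in the hippocampal pools and 444 to 523 (median 468) in the neocortical pools. The repressors Per1, Per2, Cry1 and Cry2 were not called and lay between -0.13 and -0.01. All rats were killed at the same hour, so the comparison covers 1 time of day.

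Among nuclear receptors 8 of 26 were lower and 3 higher. Nr3c2, the mineralocorticoid receptor that binds corticosterone in hippocampal neurons, had signals of 319 to 610.3 (median 455) in the hippocampal pools and 111 to 149 (median 139) in the neocortical pools, a difference of 1.73 ± 0.10. Nr3c1, the glucocorticoid receptor, had signals of 223 to 302 (median 269) in the hippocampal pools and 274 to 335 (median 301) in the neocortical pools, and its difference of -0.22 ± 0.06 was just called (adjusted p = 0.0498) with overlapping pools. Nr4a3, an orphan receptor induced by activity, had signals of 374 to 547 (median 427) in the hippocampal pools and 124 to 177 (median 149) in the neocortical pools, a difference of 1.60 ± 0.06. Esrrg, an estrogen-related receptor, and Pgr, the progesterone receptor, were lower at -0.88 ± 0.06 and -0.97 ± 0.16. Of 20 corticosteroid receptors and responsive genes 8 were higher and 3 lower. The higher ones included Fkbp5 at 0.39, Sgk1 at 0.29 and Hsd11b1, which regenerates corticosterone, at 0.46 ± 0.05.

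Homeobox genes keep regional identity, and they were called in both directions, with 14 of 35 lower and 6 higher and a median of -0.17. Meis1 had signals of 22.5 to 33.2 (median 30.9) in the hippocampal pools and 61.2 to 69.7 (median 62.6) in the neocortical pools, and Tshz3, a teashirt factor, 66.6 to 94.5 (median 87.7) in the hippocampal pools and 163 to 177 (median 169) in the neocortical pools, with differences of -1.16 ± 0.13 and -1.04 ± 0.06. Pou3f1, a POU factor, had signals of 177 to 223 (median 186) in the hippocampal pools and 70.4 to 87.4 (median 82.3) in the neocortical pools, a difference of 1.26 ± 0.07, so that it stood with Prox1 and Lhx9 on the hippocampal side. Structures did not overlap in these genes. Of 22 SOX, FOX, TBX and PAX genes 5 were lower and 1 higher, with Foxp1, shared by upper cortical layers and striatum, at -1.12 ± 0.10. Of 73 MEF2, KLF, EGR, ETS and zinc finger regulators 12 were lower and 5 higher, 23.3% against 20.8% over all genes. Mef2c had signals of 551 to 967 (median 657) in the hippocampal pools and 1689.9 to 2233 (median 2050.0) in the neocortical pools and set means of -1.86 and -1.20, and Zbtb20, the zinc finger factor of hippocampal pyramidal cells, was higher at 0.80 ± 0.12 with overlapping pools.

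Activity-regulated genes did not share a direction: of 24 measured 5 were higher and 7 lower. Bdnf, brain-derived neurotrophic factor, had signals of 118 to 257 (median 164) in the hippocampal pools and 50.3 to 92.9 (median 66.5) in the neocortical pools, a difference of 1.28 ± 0.08. Jun had signals of 339 to 396 (median 349.9) in the hippocampal pools and 195 to 268 (median 239.6) in the neocortical pools and was higher at 0.58 ± 0.05, while Fos had signals of 35.7 to 97.1 (median 82.1) in the hippocampal pools and 58.7 to 182 (median 120.0) in the neocortical pools and was lower at -0.69 ± 0.11. Fos overlapped between the structures, and 5 of its 6 pairs were below 0. Egr1 and Egr4 were lower, at -0.40 and -0.31, and Ptgs2, the inducible cyclooxygenase, was higher by 0.58. Arc was not called, at 0.03. These values are averages over the 3 conditions. By condition, the median over the list was -0.24 in set 1 and -0.38 in set 2 in the deprived pairs. It was 0.17 and 0.15 in the recovery pairs and -0.12 and 0.03 in the control pairs. The dependence of the list on condition was not tested, and that of Arc is given below.

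Genes for guidance and adhesion were called in both directions. Of 23 semaphorins, plexins and neuropilins 7 were higher and 2 lower. The semaphorin receptors Nrp1 and Nrp2 had signals of 290.2 to 362 (median 316) in the hippocampal pools and 102 to 146 (median 122) in the neocortical pools, and of 193 to 302 (median 236) in the hippocampal pools and 76.1 to 135 (median 92.6) in the neocortical pools, with differences of 1.38 ± 0.06 and 1.35 ± 0.09. Sema5a was higher at 1.16 ± 0.13 (1.48 in set 1 and 0.85 in set 2), and Plxnd1, a plexin, was lower at -0.89 ± 0.13. Of 13 Eph receptors and ephrins 5 were higher and 2 lower. The receptor Epha7 had signals of 106 to 174 (median 141) in the hippocampal pools and 34.5 to 51.2 (median 45.3) in the neocortical pools, and the ligand Efna5, which binds EphA receptors, 20.4 to 51.3 (median 34) in the hippocampal pools and 96.6 to 139.6 (median 118) in the neocortical pools. Their differences were 1.65 ± 0.16 and -1.83 ± 0.11, and neither overlapped. Of 27 cadherins and protocadherins 7 were higher, led by Fat4 at 1.15 ± 0.09 and Pcdh19 at 0.99 ± 0.08, and 4 lower, among them Cdh7 at -1.22 ± 0.11 and Cdh12 at -0.76 ± 0.08.

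Of 45 other guidance and synaptic adhesion genes 12 were higher and 12 lower. Icam5, telencephalin, a dendritic adhesion molecule of forebrain, had signals of 286 to 420.2 (median 381) in the hippocampal pools and 144 to 179 (median 157) in the neocortical pools, a difference of 1.23 ± 0.08. The receptor tyrosine kinase Kit had signals of 66.8 to 99.7 (median 84.9) in the hippocampal pools and 26.4 to 31.6 (median 28.8) in the neocortical pools, a difference of 1.55 ± 0.10. Among contactins Cntn3 and Cntn4 were lower, at -1.05 ± 0.14 and -0.72 ± 0.08. Kit, Icam5 and the contactins were each without overlap between structures.

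Secreted signals and their receptors were called in both directions. Of 26 Wnt pathway genes 6 were higher and 1 lower. The secreted Wnt antagonist Frzb had signals of 96.5 to 144 (median 113) in the hippocampal pools and 32.3 to 43 (median 34.7) in the neocortical pools, a difference of 1.71 ± 0.09, while Sfrp1, of the same family, was lower at -0.84 ± 0.14. Of 35 BMP and TGF-beta pathway genes 8 were higher and 5 lower. Nog, noggin, which binds BMPs, had signals of 45 to 94.6 (median 68.3) in the hippocampal pools and 135 to 184 (median 157) in the neocortical pools, a difference of -1.21 ± 0.22 with set means of -1.75 and -0.68, whereas Chrd, chordin, another BMP antagonist, was higher at 0.52 ± 0.08. Of 38 neurotrophic and growth factor genes 6 were higher and 8 lower. Fgfr1, a receptor for fibroblast growth factors, had signals of 218 to 326 (median 282) in the hippocampal pools and 123 to 155 (median 139) in the neocortical pools, and Gfra2, the co-receptor for neurturin, 49.9 to 67.7 (median 54) in the hippocampal pools and 128 to 158 (median 145) in the neocortical pools. These lay on opposite sides, at 0.99 ± 0.06 and -1.38 ± 0.08, without overlap.

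Of 17 genes that handle retinoids and thyroid hormone 3 were higher and 7 lower. The enzymes that make retinoic acid were split: Aldh1a1 had signals of 144 to 229 (median 189.6) in the hippocampal pools and 66.1 to 94.6 (median 83.7) in the neocortical pools, and Aldh1a2, which is also a meningeal marker, 26.2 to 62 (median 51.5) in the hippocampal pools and 96.4 to 107 (median 106) in the neocortical pools. Their differences were 1.17 ± 0.11 and -1.14 ± 0.14. Crabp2, a carrier of retinoic acid, and Rarb, a receptor for it, were lower at -1.25 ± 0.14 and -0.91 ± 0.09. No pools overlapped in these genes.

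The extracellular matrix is made by fibroblasts, glia and neurons. Of 25 collagens 10 were lower and 1 higher, with a median of -0.42 (-0.60 in set 1 and -0.29 in set 2). The collagens Col1a1, Col1a2 and Col3a1 are also members of the meningeal list. The higher one was Col25a1, a membrane collagen of neurons, with signals of 290.2 to 505 (median 407) in the hippocampal pools and 151 to 251 (median 203) in the neocortical pools and a difference of 0.97 ± 0.06. Of 20 perineuronal net and hyaluronan matrix genes 6 were higher and none lower, with a median of 0.13. Hapln4, a link protein of nets, had signals of 473 to 546 (median 526) in the hippocampal pools and 241 to 276 (median 262) in the neocortical pools, a difference of 1.0 ± 0.06. Nptx1, a pentraxin that gathers AMPA receptors, was higher at 0.60 ± 0.08, and Bcan and Vcan, lecticans, by 0.21 and 0.33.

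Genes of the synapse were called in both directions. Of 45 presynaptic release genes 12 were lower and 6 higher, and of 38 postsynaptic scaffold and plasticity genes 12 were lower and 6 higher. Stx1a, a syntaxin of the fusion machinery, had signals of 169.8 to 290.5 (median 204) in the hippocampal pools and 536 to 628 (median 601) in the neocortical pools, a difference of -1.45 ± 0.10. The complexins, which clamp and trigger release, went apart: Cplx2 had signals of 192 to 392 (median 279) in the hippocampal pools and 104 to 182 (median 159.9) in the neocortical pools and Cplx3 19.1 to 44.7 (median 25.2) in the hippocampal pools and 61 to 81 (median 68.2) in the neocortical pools, differences of 0.90 ± 0.16 and -1.31 ± 0.20. Their set means were 1.30 and 0.50 for Cplx2 and -1.77 and -0.86 for Cplx3. Sncg, gamma-synuclein, had signals of 98.1 to 259.7 (median 126) in the hippocampal pools and 36.1 to 108 (median 44.8) in the neocortical pools, which overlapped, and a difference of 1.43 ± 0.12. On the postsynaptic side Homer3, a scaffold of metabotropic receptors, had signals of 91.2 to 119 (median 105) in the hippocampal pools and 25.3 to 33.4 (median 27.6) in the neocortical pools, a difference of 1.88 ± 0.08 without overlap, and Arhgap32, a GTPase regulator at NMDA receptors, was lower at -1.04 ± 0.14.

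Of 40 tubulins, neurofilaments and microtubule-associated proteins 6 were higher and 8 lower. The tubulin Tuba8 had signals of 163 to 282 (median 243) in the hippocampal pools and 77.5 to 123 (median 97.9) in the neocortical pools, a difference of 1.22 ± 0.15, and Map4 648 to 929 (median 793) in the hippocampal pools and 342 to 411 (median 378) in the neocortical pools, a difference of 1.06 ± 0.10. Kif5a, a kinesin motor, and Stmn1, stathmin, were lower at -0.64 ± 0.06 and -0.48 ± 0.06. These genes were without overlap. Of 15 neurogenesis and proliferation genes 5 were higher and 2 lower. The largest differences among the higher ones were those of Prox1, 2.03, and Neurod1, 0.79, which are also on the list of hippocampal neuron markers. Ccnd2 and Tubb2b were higher at 0.72 ± 0.11 and 0.41 ± 0.08. The lower ones were Hopx at -0.64 ± 0.06 and Stmn1. Doublecortin, Dcx, which marks newborn neurons, was not called, at -0.16.

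Of 74 mitochondrial respiratory chain and ATP synthase subunits 5 were higher and 2 lower, 9.46% against 20.8% over all genes, with a median of 0.04. The lower members were Cox6a2, the subunit of cytochrome c oxidase typical of heart and muscle, and Atp5pf. Cox6a2 had neocortical signals of 40.5 to 77.8 (median 53.3) and was below the filter level in the hippocampal pools, without overlap, and Atp5pf differed by -0.17 ± 0.05. The call of Atp5pf held in 7 of 19 alternatives. Among the higher ones Ndufa5 differed most, by 0.40 ± 0.10. Of 40 cytosolic ribosomal proteins 7 were higher and none lower, 17.5% called against 20.8% over all genes. Their median of 0.06 became -0.003 after quantile normalization, and the largest, Rps3, differed by 0.29 ± 0.05. Of 29 chaperones 6 were higher and none lower, a share of 20.7% called, near that over all genes. The chaperone median was 0.23 in set 1 and 0.07 in set 2, and 21 members were called with set 1 alone against 1 with set 2 alone. Of 27 antioxidant and glutathione genes 6 were higher and none lower, 22.2% called, also near the share over all genes. With set 1 alone 15 were called and with set 2 alone 3. Sod3, the extracellular superoxide dismutase, differed by 0.61 ± 0.13, and Pdia3, a protein disulphide isomerase, by 0.49 ± 0.12. Of 32 genes of glycolysis, glycogen and lactate 5 were higher and 6 lower, with Pfkl, a phosphofructokinase, at 0.61 ± 0.10 and the lactate carrier Slc16a7 at -0.56 ± 0.13.

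Of 30 sterol and fatty acid synthesis genes 3 were higher and none lower, 10% called against 20.8% over all genes. They were led by the desaturase Scd, at 43.4 to 85.6 (median 55.6) in the hippocampal pools and 24.1 to 38.8 (median 29.2) in the neocortical pools, a difference of 0.95 ± 0.14. Of 66 solute carriers 9 were higher and 10 lower, with the calcium exchanger Slc24a3 at 0.69 ± 0.09 and the bicarbonate family member Slc4a11 at -0.82 ± 0.07. Of 18 antigen presentation and interferon genes 2 were higher and 5 lower. The class II genes RT1-Da and RT1-Ba differed by -1.10 ± 0.12 and -0.76 ± 0.14, and the interferon-induced Mx1 by 1.05 ± 0.11, with signals of 36 to 52.5 (median 46.6) in the hippocampal pools and 17.8 to 27.4 (median 20.2) in the neocortical pools.

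**Figure D5:**
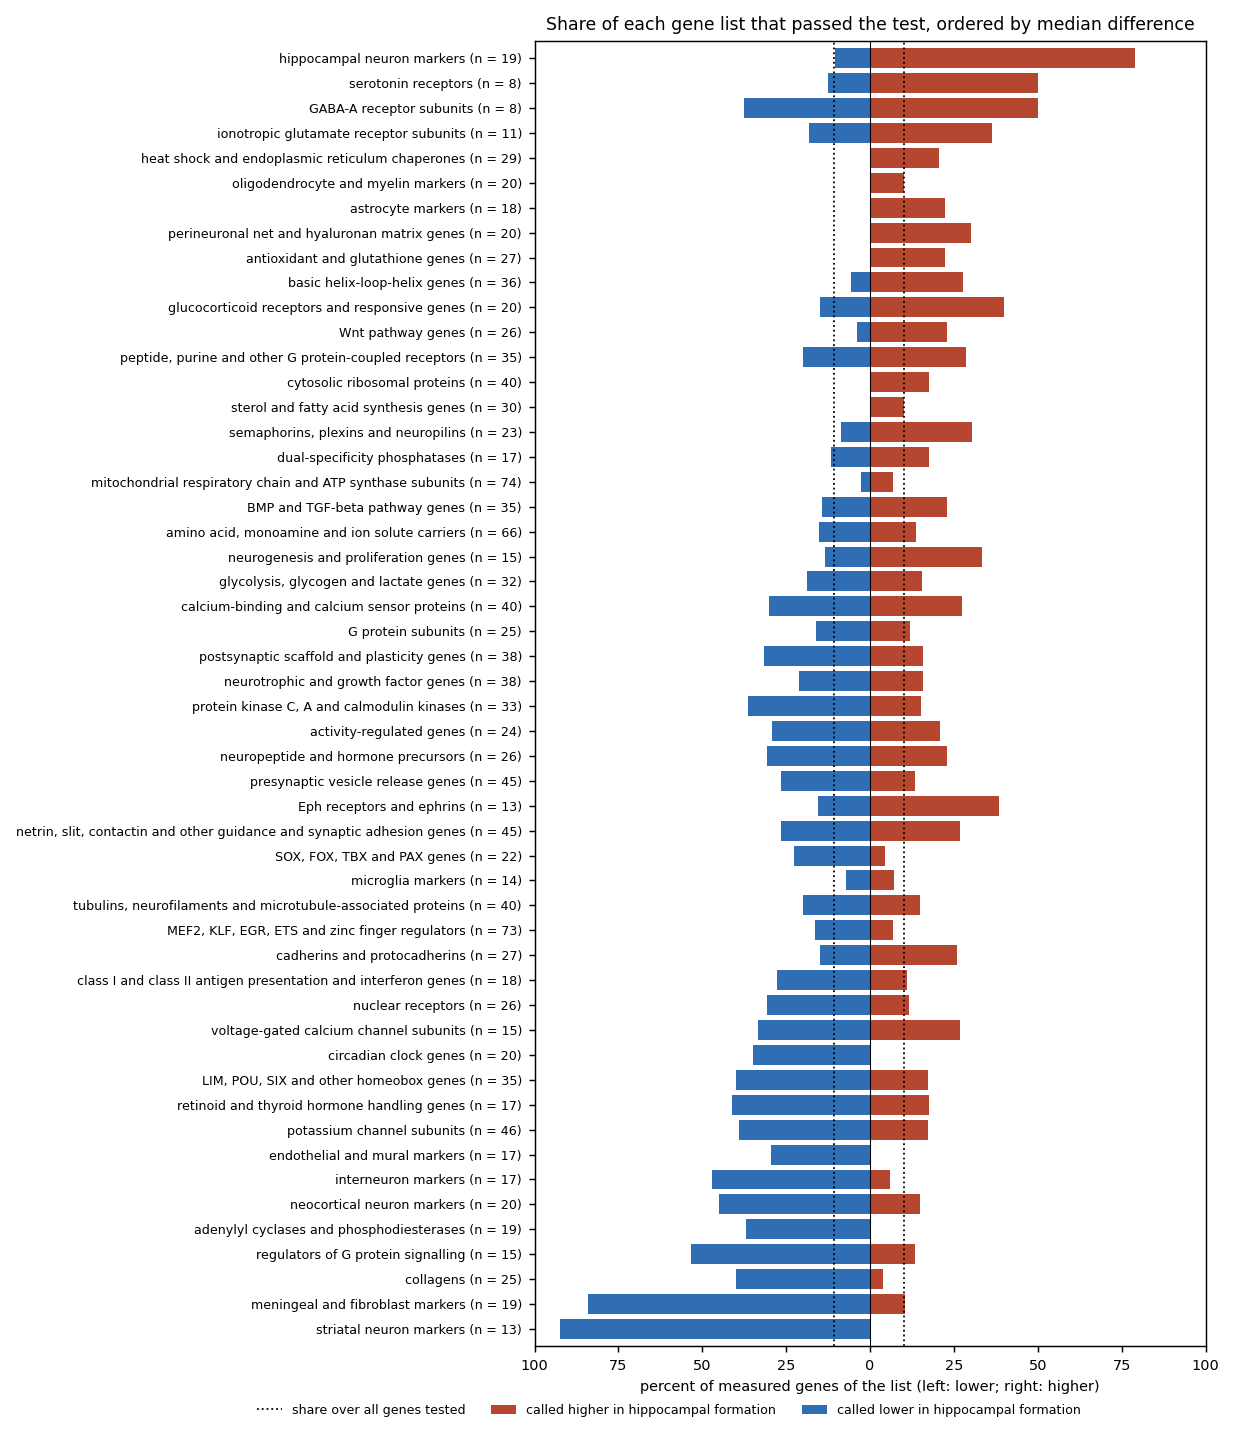
Percent of the measured genes of each list with at least 8 measured members that were called higher (red, right) or lower (blue, left) in the hippocampal formation, ordered by the median difference of the list. The dotted lines mark the share over all 10294 genes, 10.1% higher and 10.7% lower, and the lists range from hippocampal neuron markers at the top to striatal neuron markers at the bottom.

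The study varied paradoxical sleep, and the structure difference was tested for dependence on it. No probe set was called (0% of 18625, limma over the 3 conditions, smallest adjusted p = 0.9999), and 187 had an unadjusted p under 0.05. That is far below the share of 0.05 that a test without any dependence would give. In this fit the spread within a condition is the gap between set 1 and set 2. The test therefore cannot show that the structure difference is independent of sleep state. With the set of rats as a block, an analysis added after the data were seen, 1 probe set passed, that of Arc (limma, adjusted p = 0.0298). There 1025 had an unadjusted p under 0.05, near that share. Dependence on the set of rats was called for 14.7% of probe sets, and for 1931 of these 2746 the gap between sets was larger in hippocampal than in neocortical pools (median sizes 0.41 and 0.20). Of the 3700 probe sets called between structures, 608 also depended on the set, and 557 of them were larger in size in set 1. The counts of lists also moved in fits of 1 set alone. Those fits leave the gap between sets out of the spread, and set 1 pools average 2 arrays against 1 in set 2. The part of these differences in the counts was not tested. With set 1 alone 26 of the 59 lists with a called member had over 1.5 times as many called, and with set 2 alone 9 had fewer by that factor. For mitochondrial subunits 27 were called with set 1 alone and 1 with set 2 alone, for ribosomal proteins 19 and 3, for oligodendrocyte markers 12 and 0, for astrocyte markers 11 and 5, and for adenylyl cyclases and phosphodiesterases 13 and 5. For GABA-A subunits 7 were called with each set alone, for serotonin receptors 5 with each, for striatal markers 12 with each, and for hippocampal markers 19 and 16.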

How the data were processed

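Total RNA of pooled rat brain tissue was labelled with biotin and hybridised to Affymetrix arrays, and the deposited values are intensities on a linear scale, 1 per probe set and array, which the authors made with MAS5, per the submitters' processing notes (version and target level not given in the sources used here). In the deposited table the mean intensity of each array after trimming 2% at either end was 100.03, and 1119 to 2022 of 31099 probe sets per array were under 1. Intensities under 1 were set to 1 and log2 was taken, with no further normalization. The 57 control probe sets and the 40% of probe sets with the lowest mean log2 signal were left out (31042 before, 18625 after). Gene symbols came from the array's annotation, updated by gene identifier: 20832 probe sets had 1 symbol, 436 several and 9831 none. For a gene with several probe sets, that with the highest mean was used. Of 257 genes named, 71 had other probe sets, and in 3 of them another one differed in sign without being called.

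Technical arrays were averaged, and the 6 paired differences were fitted in R 4.3.3 with limma 3.58.1 (1 mean per condition, averaged, eBayes with an intensity trend, 3 residual and 4.13 prior degrees of freedom). All adjusted p-values are limma's, with Benjamini-Hochberg adjustment over all probe sets tested, and SE is limma's standard error. The pairing comes from the rats, which gave both structures. Within a pair, the departures from the group mean had correlations of 0.224 to 0.387. With 2 pools per group, these departures are only the gap between set 1 and set 2. The correlations therefore cannot tell shared rats from anything else that the arrays of a set share. Differences were also simulated for 6 pairs, with independent noise, no effect of the set of rats and few probe sets changed. Of 100 probe sets changed by 0.5 on the log2 scale 36 were recovered among 18625, and of 100 changed by 1, 79 were, with 6 false calls. In the data 19.9% were called and many probe sets depended on the set. The simulated rates therefore do not carry over to the data. The number of pools limits the precision.

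The members, gene lists and tests were chosen with earlier results of these data known, and the lists come from textbook knowledge. Named were the 10 largest called differences each way among well-measured genes with all 6 pairs of 1 sign, the 5 largest each way among called genes with a structure below the filter level, and up to 3 called members each way of every list (where none was called, that with the smallest p). Other list members named were chosen after their values were seen. Promoter sequences came from RefSeq (GRCr8). Prox1, Nr3c2, Mef2c and Penk were also looked up, but the windows used held none for them.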

Additional observations from a re-analysis of the deposited data

Results flagged for a closer look

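Chance sets about 1 in 20 groups apart by the criterion used here, the 95% critical value of Dixon's ratio (the gap of the farthest value to the next over the range) for 6 values. Of 91 groups of 6 paired differences examined (leading genes and list medians), 5 met it. The difference of Penk in the control pair of set 2 was -1.20, against -2.15 to -1.83 in the other 5 pairs. The median of endothelial and mural markers in the recovery pair of set 1 was 0.0093, against -0.26 to -0.18. The median of potassium channel subunits in the deprived pair of set 1 was -0.43, against -0.20 to -0.13. The median of the 3 muscarinic receptors in the recovery pair of set 1 was 0.32, against -0.18 to -0.08. The median of receptors for peptides, purines and other ligands in the deprived pair of set 1 was 0.0265, against 0.11 to 0.16.

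The structure difference itself differed between the sets of rats for 2746 probe sets by limma's test of the set term (Benjamini-Hochberg adjusted p under 0.05, smallest 7.01e-05). What sets the sets apart was not tested.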

How the results depend on the processing

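Of 255 named genes that were called, 188 were called in each of the 19 alternatives that tested them and none changed direction, and all 30 leading genes (20 well measured and 10 below the filter level in 1 structure) were called in each. The leading genes were picked as the largest called differences in the same data, so that count is no separate support for them. The count of 3700 probe sets called moved by over 1.5 times with the set of rats as a replicate block on the pairs, to 8006 (3787 higher and 4219 lower, all 3700 among them), and with set 1 only, to 8491 (3999 higher and 4492 lower, sharing 3482). Leaving out 1 pair gave 1625 to 4507 called, 739 to 1984 higher and 886 to 2523 lower. The lowest came without the deprived pair of set 1, and 1790, 2171 and 2338 were called without the recovery pair of set 1, the control pair of set 1 and the deprived pair of set 2. The other alternatives gave 2597 to 5432, among them 3068 without the pairing, 3145 without the filter and 3647 after quantile normalization. Dependence on the set of rats fell from 2746 to 1278 probe sets without the filter, where 31042 were tested. Dependence on sleep state rose from 0 to 1 probe set with the set of rats as a replicate block, an alternative chosen after seeing the data. Medians of lists near 0 changed sign in some alternatives, such as dual-specificity phosphatases (0.05, and -0.17 with the lowest 60% left out) and Eph receptors and ephrins (-0.08, and 0.50). The cause of these changes was not tested. Signals near the filter level carry the largest relative error, and the differences of the 10 dim leading genes have no settled size.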
